A study of Mus musculus with 42 samples.

Results

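Mouse colonic organoids kept with the cytokine IL-17A for 72 h were compared with untreated organoids labelled with the same time. The libraries were chosen by their labels and table columns: IL-17A libraries 1, 2 and 3 and control libraries 1, 2 and 4, which are 6 of the 42 samples of the series. The study asked what BMP signalling in stromal cells does in the large intestine and, as a later step, how interleukins act on goblet cells. It sequenced sorted goblet and stromal cells, which were not used here, and 18 organoid libraries. Organoids are balls of epithelium grown from crypts in a gel, without stroma or immune cells. All groups used here were labelled WT and were grown in ENR medium (EGF, Noggin and R-spondin1) with Wnt3a-conditioned medium and the GSK3 inhibitor CHIR, a mixture that keeps stem cells dividing. The treated group received 10 nM IL-17A for 72 h and the control group received nothing. For 2 direct comparisons, organoids with 10 nM IL-1α and IL-1β for 72 h (3 libraries) and organoids with 10 nM IL-17A for 12 h (3 libraries) were added. Strain, sex and age were not given in the labels.

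IL-17A is made mainly by T cells and innate lymphoid cells and binds a receptor built from Il17ra and Il17rc on epithelial cells. The adaptor Traf3ip2 (Act1) then recruits Traf6, which activates NF-κB, MAP kinases and C/EBP factors, and Act1 also slows the decay of some inflammatory mRNAs. In gut epithelium the cytokine is known for raising chemokines, antimicrobial proteins, the polymeric immunoglobulin receptor and enzymes that make reactive oxygen.

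Values are normalized counts, that is, reads per gene divided by a scaling factor of each library. Control libraries 1, 2 and 4 held 17030522, 15819246 and 17491815 reads in genes, and IL-17A libraries 1, 2 and 3 held 16743270, 16652376 and 16351563. The 10 most abundant genes took 7.58%, 6.79% and 6.58% of control reads and 8.71%, 7.49% and 9.49% of treated reads. The labels do not say whether libraries came from separate cultures or animals, so p-values measure only the spread between these samples, part of which may be technical.

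The libraries had features that their labels do not give. Control library 1 held the same reads as control library 2 of 12 h, and control library 4 the same reads as control library 4 of 12 h, in 100% of 14333 genes. Only the reads of control library 2 were found at 72 h alone, and that library was closest to control library 4 (below). At which time the shared reads were taken is not given. In the comparison with controls, time in culture and treatment can therefore be told apart at most through control library 2. *Xist*, the RNA of the inactive X chromosome, stood at 5.31, 24779 and 27606 in control libraries 1, 2 and 4, and at 4.48, 0 and 5.04 in IL-17A libraries 1, 2 and 3. *Uty*, on the Y chromosome, stood at 414, 0 and 0 in the controls and at 1055, 748 and 1100 with IL-17A. Control libraries 2 and 4 were thus of female and the other 4 libraries of male origin. Of the 4 sex-linked genes tested, 0 were called, since the control group itself was mixed (adjusted p = 0.0716 in limma for *Uty*). Their median log2 fold change with all libraries was 7.20, and all 4 were called without control library 1. Sex and treatment can therefore be told apart only through control library 1.

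The libraries were unequally far apart. The chi-square per gene between reads of 2 libraries, a measure of distance, was 3.30 between control libraries 2 and 4, so these were more alike than any other pair of the 6, although they differed by more than sampling noise. It was 61.1 and 65.4 between control library 1 and control libraries 2 and 4. Among IL-17A libraries it was 112 between 1 and 2, 72.9 between 1 and 3 and 211 between 2 and 3. At least 1 log2 unit away from the control mean stood 30% of genes in IL-17A library 1, 13% in library 2 and 40.4% in library 3. These shares hold the difference between the groups as well as the spread within the treated group. Each control library set against the other 2 gave 10.7%, 4.41% and 4.63% for libraries 1, 2 and 4. The first principal component held 64.1% of the variance, with controls at -50.16, -60.05 and -59.65 and IL-17A libraries 1, 2 and 3 at 66.54, -3.92 and 107.24. IL-17A library 2 thus lay nearest the controls. Among nuclear RNAs, which can also move with RNA quality, *Malat1* stood at 19417, 3397 and 3634 in controls 1, 2 and 4 and at 20779, 11634 and 51681 with IL-17A, so that the groups overlapped. Over the list of nuclear and retained-intron RNAs the libraries did not overlap, with member medians of -0.13, 0.24 and 0.18 from the control mean in controls 1, 2 and 4 and of 1.29, 0.71 and 2.76 with IL-17A. Of the 6 members tested, which include *Xist* (-8.99), 1 was called higher, *Snhg11*, and the list's median log2 fold change was 1.46. The list held 2 calls without control library 1 or IL-17A library 2 and 0 without any of the other 4. What this had to do with the other differences was not tested.

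The epithelial label held in all 6 libraries. *Epcam*, the epithelial adhesion molecule, stood at 19729, 19040 and 19065 in the controls and at 39965, 26316 and 41961 with IL-17A, and the intestinal factor *Cdx2* stood at 1636 to 7024 over all 6. Of 15 fibroblast and muscle markers, 3 had an entry and 2 passed the filter. Their summed values were 279, 135 and 146 in the controls and 1159, 226 and 576 with IL-17A, with *Pdgfrb* most abundant. Of 16 immune cell markers 4 had an entry and 2 were tested, with sums of 135, 64.4 and 47.4 against 178, 201 and 105 and *Cd68* most abundant. Of 8 endothelial markers 4 had an entry and 3 were tested, with sums of 128, 169 and 140 against 169, 215 and 149 and *Vwf* most abundant. In these 3 lists 0 genes were called by limma, and their median log2 fold changes were 0.88, 1.18 and -6e-04. Without IL-17A library 2, 1 fibroblast and muscle marker was called. *Itgam*, of myeloid cells, stood at 58.4, 19.9 and 10.2 against 60.5, 90.3 and 64.3 and was not called.

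With IL-17A for 72 h, 7 of 18 antimicrobial and oxidase genes, 6 of 21 NF-κB genes, 3 of 12 chemokines and 11 of 19 known IL-17 targets rose, and 11 of 27 S phase genes fell. In these lists 0 genes were called in the other direction. Their members were chosen with earlier results of these data known, so the counts are no independent evidence. The lists share called genes: *Duox2*, *Duoxa2*, *Lcn2*, *Nfkbiz*, *Zc3h12a*, *Cxcl1*, *Cxcl2* and *Ccl28* are IL-17 targets that count again in another of them. Of 13073 genes with a mean of at least 10, 1038 were called (7.94%), 656 higher (5.02%) and 382 lower (2.92%). A gene was called at an adjusted p under 0.05 from limma and a log2 fold change of at least 1 in size, on the log2(value + 1) scale, which understates the change of low genes. All treated libraries lay above all controls in 2842 genes (21.7%) and below them in 3081 genes (23.6%). The counts of each list below are to be read beside these shares over all genes. For single genes, values are given for control libraries 1, 2 and 4 and then for IL-17A libraries 1, 2 and 3, and the number that follows in parentheses, or that a gene or list is said to have given, is the log2 fold change. The median log2 fold change over all genes was -0.0056, and the median standard error (SE) was 0.28.

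The number of calls hung on single libraries. It was 218 without control library 1, 4 without control library 2, 3 without control library 4, 3 without IL-17A library 1, 3577 without IL-17A library 2 and 86 without IL-17A library 3. Only *Duox2* was called in all 6 of these fits. *Duoxa2* and *Plet1* were called in 5, and *Ero1l*, *Nfkbia* and *Zc3h12a* in 4. All other called genes lost their call in at least 3 of the 6 fits. At an unadjusted p and the same fold, 822 of the 1038 genes (530 higher, 292 lower) passed in all 6 fits. When control libraries 2 and 4 were averaged and entered once, 2 genes were called (*Duox2* and *Duoxa2*). When library sex was added to the model as a block, 5 genes were called (*Duox2*, *Duoxa2*, *Zc3h12a*, *Nos2* and *Cd177*). Against control library 2 alone, 4 were called (*Duoxa2*, *Uty*, *Ddx3y* and *Eif2s3y*), and against control library 1 alone, 1 (*Nos2*). With 1 control library the spread came from the treated libraries alone, and the lone control was assumed to vary like them. On whole reads edgeR called 869 genes, 74.9% of them higher against 63.2% in limma, and DESeq2 called 2311. Weighting the libraries by their spread in limma gave 3874 calls, 47.9% of them higher.

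**Figure D1:**
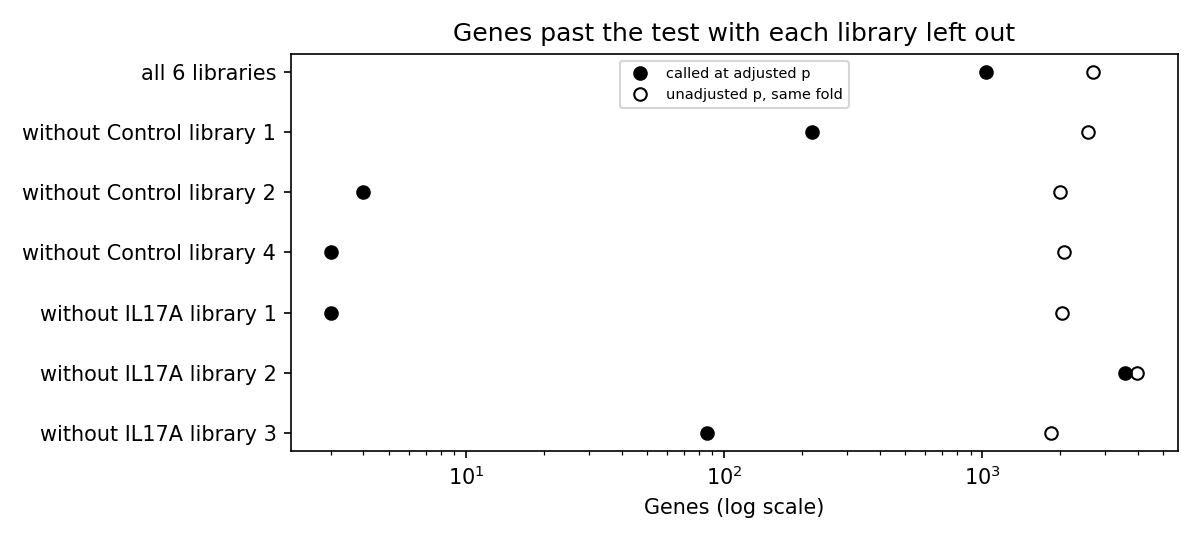
Number of genes (horizontal axis, log scale) past the test of IL-17A against control at 72 h with all 6 libraries and with each library left out. Filled circles are genes called at the adjusted p, and open circles are genes past the same fold at an unadjusted p. The filled circles run from 3 to 3577, and the open circles from 1853 to 3983.

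The receptor genes themselves were not called. *Il17ra*, the subunit shared within the receptor family, stood at 359, 404 and 386 in the controls and at 295, 280 and 270 with IL-17A (log2 fold change -0.44, not called). *Il17rc* stood at 891, 1147 and 1148 against 1879, 1242 and 2384 (0.75, not called). Neither gene's groups overlapped, with treated values lower for *Il17ra* and higher for *Il17rc*. *Il17re*, a receptor chain of the epithelial cytokine IL-17C, gave 1.34 and was not called. Of the 28 receptor, adaptor and kinase genes tested, 1 was called higher, 0 lower and 27 not called, with a median of 0.27. The called gene was *Cebpd*, a C/EBP transcription factor, at 157, 163 and 165 in the controls and 745, 840 and 755 with IL-17A (2.26 ± 0.17 SE, limma adjusted p = 0.00488). Its treated libraries differed by little and stood far above the controls. *Cebpd* overlaps *Spidr* in the annotation, and whether the counting used strand was not given. *Traf3ip2* gave 0.37, *Traf6* -0.75 and *Cebpb* 0.69, none of them called. *Il17a* was not analysed here. Left out singly, control libraries 2 and 4 and IL-17A library 1 each brought the calls of this list to 0, and IL-17A library 2 brought them to 5.

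Known IL-17 targets of epithelium formed the list with the highest median among the lists of signalling and defence. Of 36 such genes 21 had an entry and 19 were tested: 11 were called higher, 0 lower and 8 not called, with a median of 3.05. The median over members was 2.95, 2.003 and 3.22 above the control mean in IL-17A libraries 1, 2 and 3. Calls in the list numbered 7, 3 and 2 without control libraries 1, 2 and 4, and 1, 14 and 6 without IL-17A libraries 1, 2 and 3. All 11 passed an unadjusted p and the fold in each of those fits. *Nfkbiz*, whose protein works with NF-κB at IL-17 target promoters, stood at 466, 385 and 394 in the controls and at 3191, 2760 and 4563 with IL-17A (3.05). *Zc3h12a*, an RNase that degrades inflammatory mRNAs and restrains IL-17 signalling, stood at 451, 259 and 300 against 2839, 3026 and 3050 (3.18). In both genes the lowest treated library was far above the highest control. *Steap4*, a metalloreductase, stood at 328, 238 and 197 against 4494, 1841 and 4647 (3.76), with IL-17A library 2 the lowest of the treated. *Saa1*, an acute-phase protein, stood at 134, 136 and 147 against 1501, 137 and 13207 and was not called, and IL-17A library 2 lay within the controls. *Nox1*, an oxidase, gave -0.94 and was not called.

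The dual oxidase and its maturation factor, which produce hydrogen peroxide, both rose. *Duox2*, the dual oxidase of the apical membrane, stood at 884, 809 and 861 in control libraries 1, 2 and 4 and at 23228, 30365 and 32399 in IL-17A libraries 1, 2 and 3. The groups lay 33.7-fold apart in their means and each was tight (5.06 ± 0.17 SE, limma adjusted p = 0.00015). *Duoxa2*, the factor that brings the oxidase to the membrane, stood at 168, 64.4 and 67.7 against 5110, 4944 and 6522 (5.91 ± 0.38 SE, limma adjusted p = 0.00393). The pair lies head to head on chromosome 2 (mm10), *Duox2* at chr2:122279247-122298449 on the minus strand and *Duoxa2* at chr2:122298900-122302885 on the plus strand. Some reads of *Duoxa2* may belong to the neighbouring *Duoxa1*. Over all alternatives run, the adjusted p of *Duox2* ran from 8.96e-134 to 0.16, and that of *Duoxa2* from 4.1e-41 to 0.0943. *Duox2* missed the threshold only where 1 control library was kept, in fits that take the spread from the treated libraries alone: adjusted p = 0.0731 in limma with control library 2 alone and 0.16 with control library 1 alone.

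*Nos2*, the inducible nitric oxide synthase, stood at 70.8, 360 and 405 in the controls and at 4785, 5776 and 5629 with IL-17A (4.62). Control library 1 was lowest, and every treated library was far above the highest control. *Lcn2*, which binds bacterial siderophores, had 1 read over all controls (values of 0.885, 0 and 0) and stood at 58.2, 90.3 and 49.1 with IL-17A. *Pglyrp1*, a peptidoglycan recognition protein, stood at 2942, 5480 and 5191 against 18310, 14365 and 22684 (2.05). *Lypd8*, which keeps flagellated bacteria off the colon surface, stood at 34977, 31307 and 31490 against 210990, 59251 and 240970 (2.15), with IL-17A library 2 nearest the controls. *Ltf*, lactoferrin, was also called (3.497). Of 18 antimicrobial and oxidase genes tested, 7 were called higher, 0 lower and 11 not called, with a median of 2.09. The list held 5, 2 and 2 calls without control libraries 1, 2 and 4, and 1, 13 and 3 without IL-17A libraries 1, 2 and 3, and 6 of the 7 passed at an unadjusted p each time. *Ang4* and *Retnlb*, antimicrobial products of secretory cells, gave -3.00 and -2.61 and were not called. For *Ang4* the treated values were 63.8, 780 and 90.7 against 1015, 1466 and 1593.

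**Figure D2:**
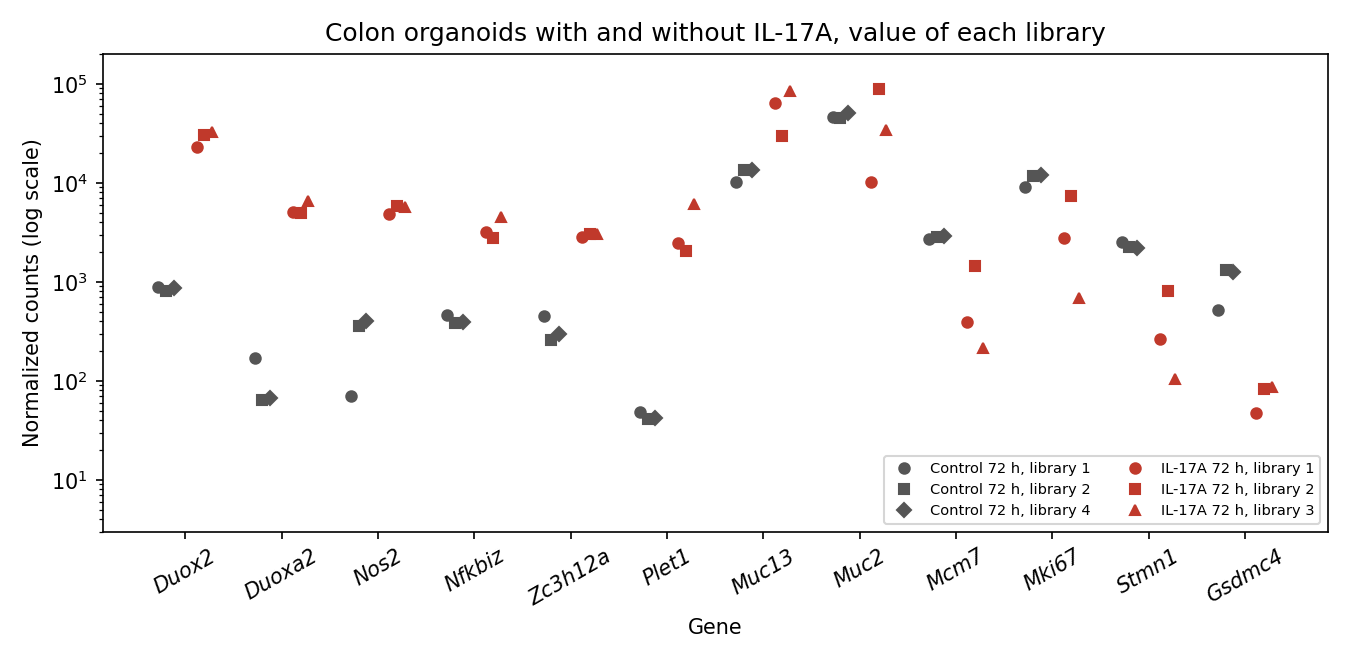
Normalized counts of 12 genes (vertical axis, log scale) in control libraries 1, 2 and 4 (grey) and IL-17A libraries 1, 2 and 3 (red) at 72 h, 1 point for each library. The treated points of *Duox2* lie between 23228 and 32399 and its control points between 809 and 884, whereas the groups overlap for *Muc2*. For *Mcm7*, *Mki67* and *Stmn1*, IL-17A library 2 is the treated point nearest the controls.

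Among NF-κB genes, 6 inhibitors, feedback genes and targets rose, and no subunit was called. *Nfkbia*, the inhibitor that holds NF-κB in the cytoplasm, stood at 949, 992 and 1044 in the controls and at 7353, 5632 and 5138 with IL-17A (2.58 ± 0.17 SE, limma adjusted p = 0.00393, with 1.1e-32 to 0.498 over the alternatives). *Tnfaip3*, a ubiquitin-editing brake on the pathway, gave 1.60 and *Birc3*, a ubiquitin ligase downstream of TNF, 1.46. *Tnfaip2* gave 3.62, from 26.6, 47.4 and 40.6 to 108, 704 and 1352, so its treated values spread widely. Of 21 genes tested, 6 were called higher, 0 lower and 15 not called, with a median of 0.53. The subunit genes *Nfkb1*, *Nfkb2*, *Rela*, *Rel* and *Relb* gave -0.14, -0.14, -0.22, 0.38 and 0.47, none called. Calls numbered 5, 1 and 0 without control libraries 1, 2 and 4, and 1, 9 and 4 without IL-17A libraries 1, 2 and 3, while all 6 passed at an unadjusted p each time.

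Among chemokines, *Cxcl1* and *Cxcl2*, which draw neutrophils, were low in controls. *Cxcl1* stood at 8.85, 24.6 and 18.6 and rose to 104, 72.5 and 146 (2.61), and *Cxcl2* stood at 0.885, 7.58 and 1.69 and rose to 52.6, 26.3 and 46.6 (3.55). *Ccl28*, a mucosal chemokine for plasma cells, stood at 1182, 2084 and 2134 against 5123, 3443 and 4348 (1.29). Of 12 chemokines tested these 3 were called higher, 0 lower and 9 not called, with a median of 0.96. Without control libraries 2 or 4, or IL-17A libraries 1 or 3, the list held 0 calls, and without control library 1 it held 1, while all 3 passed at an unadjusted p each time. In the TNF pathway, *Tnf* itself stood at 112, 145 and 151 against 820, 856 and 483 (2.36), and *Ltb*, a related ligand, gave 2.61. *Tnfrsf11b*, a decoy receptor, and *Tnfrsf12a*, the receptor of TWEAK, gave 1.78 and 1.11. These were the 4 called of 16 tested, with 12 not called, 0 lower and a median of 0.69. Calls of the TNF list numbered 2, 0 and 0 without control libraries 1, 2 and 4, and 0, 6 and 1 without IL-17A libraries 1, 2 and 3, and 2 of the 4 passed at an unadjusted p each time.

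*Pigr*, which carries IgA and IgM across the epithelium, stood at 58924, 63793 and 62243 in the controls and at 132050, 121570 and 143570 with IL-17A (1.10 ± 0.24 SE). All treated libraries held about the same raised level. Complement genes rose with it. *C3*, the central complement protein, stood at 77.0, 196 and 213 against 1426, 1133 and 2352 (3.39), and *Cfb*, of the alternative pathway, gave 1.12. *C2* gave 2.06 (it overlaps *Zbtb12*), and *Cd55*, which shields cells from complement, gave 1.26. Of 7 genes tested 5 were called higher, 0 lower and 2 not called, with a median of 1.26. The list held 1, 0 and 0 calls without control libraries 1, 2 and 4, and 0, 5 and 0 without IL-17A libraries 1, 2 and 3, and 4 of the 5 passed at an unadjusted p each time.

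Since some NF-κB feedback genes and some chemokines were called higher, promoters were searched for the NF-κB consensus on both strands. RefSeq promoters of GRCm38.p6 were used, 250 bases before each start, and other patterns had been tried on some promoters before this one was chosen. The consensus occurred in 7.25% of 32851 promoters and in 10.4% of 10175 tested genes with a promoter. It occurred in 5 of 15 IL-17 targets with a promoter (*Ccl20*, *Cxcl1*, *Cxcl2*, *Nox1* and *Steap4*), in 9 of 17 NF-κB genes and in 3 of 21 S phase genes. The pattern was chosen after such trials, so these shares are no independent evidence. A match describes the letters only, and 2 of the IL-17 targets with a match, *Ccl20* and *Nox1*, were not called. Of the 9 NF-κB genes only *Nfkbia*, *Tnfaip2* and *Tnfaip3* were called, and *Cyld*, *Nfkb2*, *Nfkbie*, *Rel*, *Tnip1* and *Tnip3* were not. The called *Zc3h12a* and *Birc3* had a promoter without a match. The 3 promoters below were chosen after their matches were seen and are shown because these genes were called; capitals mark the matched run, 5′ to 3′ on the strand of the gene. *Cxcl1* lies at chr5:90890995-90891244 (plus strand) and *Cxcl2* at chr5:90903649-90903898 (plus strand). In both, the run of 11 bases matches on both strands, and it starts 71 and 97 bases before the start. *Nfkbia* lies at chr12:55492648-55492897 (minus strand), with a run of 10 bases that starts 29 bases before the start.
Cxcl1: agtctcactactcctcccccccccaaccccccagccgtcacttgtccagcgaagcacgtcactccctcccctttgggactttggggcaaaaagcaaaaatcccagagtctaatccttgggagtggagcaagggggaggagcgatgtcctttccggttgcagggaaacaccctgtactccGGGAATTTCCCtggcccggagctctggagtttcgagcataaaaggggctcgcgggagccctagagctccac
Cxcl2: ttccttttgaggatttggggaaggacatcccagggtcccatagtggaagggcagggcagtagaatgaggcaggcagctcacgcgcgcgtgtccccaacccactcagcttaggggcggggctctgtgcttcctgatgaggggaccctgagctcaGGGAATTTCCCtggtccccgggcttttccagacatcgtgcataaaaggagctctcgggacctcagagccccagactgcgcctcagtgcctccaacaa
Nfkbia: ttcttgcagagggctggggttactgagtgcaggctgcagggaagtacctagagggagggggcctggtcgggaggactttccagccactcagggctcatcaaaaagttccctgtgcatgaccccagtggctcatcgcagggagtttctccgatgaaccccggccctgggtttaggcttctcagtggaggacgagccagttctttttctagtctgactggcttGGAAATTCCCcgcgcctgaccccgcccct

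*Muc1*, a membrane mucin, stood at 16.8, 147 and 114 in the controls and at 1322, 724 and 2263 with IL-17A (4.27). *Muc13*, another membrane mucin, stood at 10288, 13430 and 13544 against 64680, 29993 and 84021 (2.15). Both rose in every treated library, with IL-17A library 2 the lowest. *Muc13* shares its place with the unnamed transcript Gm15657, which was itself called (2.55). *Muc2*, the gel-forming mucin of goblet cells, stood at 46230, 44727 and 50963 against 10276, 89141 and 33849 (-0.59 ± 0.70 SE, limma adjusted p = 0.556, not called). Its treated libraries lay on both sides of the controls, and without IL-17A library 1 the log2 fold change was 0.22. *Muc20* gave 0.55 and was not called, and *Muc5b* was not analysed here. Of 9 mucins tested 2 were called higher, 0 lower and 7 not called, with a median of 0.55, and without control library 1 the list held 1 call. It held 0 without control libraries 2 or 4 or IL-17A libraries 1 or 3, while both passed at an unadjusted p each time.

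Of 21 goblet cell products tested, 0 were called by limma with all libraries, and 7 were called without IL-17A library 2. The median was -0.37, and the member medians were -1.29, 0.20 and -0.31 in IL-17A libraries 1, 2 and 3 on the scale of log2 distance from the control mean. *Clca1*, a secreted protease of mucus, stood at 5970, 11213 and 10877 against 8506, 6602 and 48963. *Fcgbp*, a mucus protein, stood at 26106, 26109 and 25929 against 12473, 25464 and 50561. In both genes IL-17A library 3 alone was high. *Atoh1*, the master factor of secretory cells, stood at 598, 519 and 534 against 98.6, 612 and 357 (-0.98), and *Spdef*, of goblet cells, at 1095, 1221 and 1189 against 362, 2259 and 614 (-0.55). Both factors were low in IL-17A libraries 1 and 3, in library 2 *Atoh1* was close to the controls and *Spdef* above them, and neither was called. *Reg4*, of deep crypt secretory cells, stood at 5015, 8950 and 9186 against 1002, 5922 and 600 (-2.28, not called). Fewer cells of a type and less RNA per cell cannot be told apart in such bulk libraries. Of 8 deep crypt secretory and Paneth markers, 0 were called higher, 1 lower (*Dll1*, a Notch ligand, -1.32) and 7 not called, with a median of -1.46. The list held 4 calls without IL-17A library 2 and 0 without any other single library. Among 27 genes of O-glycosylation and sulfation, *Galnt3*, which starts mucin glycans, and *St3gal1*, a sialyltransferase, were called higher (1.66 and 2.34), 0 lower and 25 not called, with a median of -0.02. That list held 3 calls without control library 1, 9 without IL-17A library 2 and 0 without any of the other 4, while both passed at an unadjusted p each time. *St3gal1* stood at 454, 106 and 130 against 569, 1232 and 1186, so that control library 1 was nearest the treated. Its log2 fold change ran from 1.05 to 3.14 over the alternatives.

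Of the S phase genes, 11 of 27 fell. *Mcm7*, a subunit of the replicative helicase, stood at 2704, 2814 and 2867 in the controls and at 391.99, 1435 and 213 with IL-17A (-2.50). *Pcna*, the sliding clamp, stood at 3911, 3918 and 3807 against 1655, 2511 and 1156 (-1.20), and *Cdc6*, a loading factor, at 489, 547 and 550 against 72.8, 207 and 51.7 (-2.50). In each gene IL-17A library 2 lay between the controls and the other treated libraries. Of 27 S phase genes tested, 0 were called higher, 11 lower and 16 not called, with a median of -2.46. All 27 had every treated library below every control, against 23.6% of all genes. The median over members was -2.68, -1.02 and -3.70 in IL-17A libraries 1, 2 and 3. Calls numbered 1, 0 and 0 without control libraries 1, 2 and 4, and 0, 27 and 0 without IL-17A libraries 1, 2 and 3, and 10 of the 11 passed at an unadjusted p in all 6. *Mcm7* shares its place with *Ap4m1*.

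Of 28 mitotic genes tested, 0 were called higher, 1 lower and 27 not called, with a median of -1.998. In 26 of them every treated library was below every control, against 23.6% of all genes. The called gene was *Birc5*, survivin, at 1096, 1174 and 1317 in the controls and 328, 545 and 129 with IL-17A (-2.06). *Mki67*, the common mark of dividing cells, stood at 9068, 11624 and 11881 against 2781, 7323 and 680 (-2.17 ± 0.77 SE, limma adjusted p = 0.0898, not called). *Top2a*, a topoisomerase of dividing cells, stood at 5388, 8991 and 8621 against 2168, 5203 and 588 (-1.99, not called). Without IL-17A library 2, 27 of the mitotic genes were called, and without any other single library 0 were. *Stmn1* and *Hmgn2* were in none of the lists and were among the 12 largest decreases. *Stmn1*, which destabilises microtubules, stood at 2511, 2227 and 2201 against 262, 808 and 105 (-3.03), and *Hmgn2*, a nucleosome-binding protein, at 2111, 2186 and 2004 against 115, 571 and 131 (-3.35).

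Of 19 stem cell and Wnt target genes, 7 had every treated library below every control and 1 had every one above. Over all genes these shares were 23.6% and 21.7%. Their member medians were -0.997, -0.10 and -1.68 in IL-17A libraries 1, 2 and 3, and the median log2 fold change was -0.95. By limma 0 were called with all libraries and 12 without IL-17A library 2. *Smoc2*, of stem cells, stood at 2265, 1909 and 2071 against 172, 686 and 22.7 (-3.88). *Ascl2*, a stem cell factor, stood at 122, 82.4 and 82.9 against 17.9, 128 and 7.56 (-1.79). *Axin2*, a Wnt feedback gene, stood at 827, 619 and 629 against 192, 422 and 113 (-1.71). For *Ascl2*, IL-17A library 2 lay above every control. *Prom1*, of stem and progenitor cells, stood at 5811, 5543 and 5565 against 9655, 12075 and 12211 (0.996, not called), and *Slc12a2*, a transporter of crypt base cells, gave -0.98 and was not called. *Lgr5* was not analysed here. Of 15 Notch genes tested, *Jag2*, a ligand, was called higher (1.66), *Dll1* lower and 13 not called, with a median of 0.0055. Of 26 lineage factors 0 were called higher, 1 lower (*Foxa2*, -1.19) and 25 not called, with a median of -0.18. The Notch and lineage factor lists held 0 calls in every fit that left out 1 library, except 4 and 9 without IL-17A library 2. At an unadjusted p the called Notch genes passed each time and *Foxa2* did not.

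Of 24 colonocyte markers tested, 3 were called higher, 0 lower and 21 not called, with a median of 0.76 and member medians of 0.85, 0.001 and 1.79 in IL-17A libraries 1, 2 and 3. *Ceacam20*, of the brush border, stood at 247, 223 and 248 against 1659, 604 and 4641 (2.80). *Ceacam1*, an adhesion molecule, stood at 28626, 29372 and 31802 against 55491, 55015 and 79009 (1.06), and *Lypd8* was the third. *Aqp8*, a water channel, stood at 3917, 2401 and 2383 against 36567, 4936 and 107090, and *Car4*, a carbonic anhydrase, at 193, 216 and 223 against 1131, 271 and 4189. Neither was called, and IL-17A library 2 was close to the controls in both. *Alpi*, the intestinal alkaline phosphatase, stood at 301, 83.4 and 140 against 80.6, 154 and 1308 (0.73, not called), so that IL-17A library 3 alone was high. The colonocyte list held 11 calls without IL-17A library 2 and 0 without any other single library, and 2 of the 3 passed at an unadjusted p each time.

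Of 25 genes of sodium, chloride and water transport, 1 was called higher, 1 lower and 23 not called, with a median of 0.96. *Scnn1a*, a subunit of the epithelial sodium channel, stood at 858, 833 and 861 against 3201, 1438 and 4293 (1.67). *Kcne3*, a potassium channel subunit needed for chloride secretion, stood at 937, 1176 and 1208 against 250, 552 and 150 (-1.998). Neither gene's groups overlapped. *Atp12a*, a proton pump, stood at 221, 1897 and 1822 against 45435, 1061 and 70649 (4.04, not called), and IL-17A library 2 lay within the controls. The list held 16 calls without IL-17A library 2, 1 without control library 1 and 0 without any of the other 4, while both passed at an unadjusted p each time. Of 6 ion and solute transport genes that the study chose on its own samples, which are no independent evidence, *Slc16a9*, a monocarboxylate transporter, was called higher (1.85), 0 lower and 5 not called, with a median of 0.44. *Chp2*, a cofactor of sodium-proton exchangers, stood at 929, 902 and 986 against 6187, 1123 and 3976 (1.69), and *Slc16a10*, an aromatic amino acid transporter, at 111, 127 and 118 against 32.5, 94.1 and 10.1 (-1.87). Both had groups that did not overlap but were not called. That list held 5 calls without IL-17A library 2 and 0 without any other single library.

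Of 19 enteroendocrine genes tested, 10 had every treated library above every control, against 21.7% of all genes. Of the 19, 5 were called higher (5.02% of all genes were), 0 lower and 14 not called, with a median of 1.25. Member medians stood 1.16, 0.96 and 1.60 above the control mean in IL-17A libraries 1, 2 and 3, and at 0.55, -0.01 and -0.39 in control libraries 1, 2 and 4, so that control library 1 was nearest the treated. For *Chgb*, control library 1 (2889) lay above IL-17A library 1 (2501), and the log2 fold change ran from 0.18 to 1.41 over the alternatives. *Tph1*, which makes serotonin in enterochromaffin cells, stood at 120, 39.8 and 27.1 against 430, 516 and 818 (3.46). *Tac1*, the precursor of substance P, stood at 31.9, 39.8 and 30.5 against 205, 145 and 276 (2.54). *Cck*, cholecystokinin, stood at 105, 103 and 69.4 against 323, 270 and 291 (1.68). In *Tph1*, *Tac1* and *Cck* every treated library was above every control, IL-17A library 2 included. *Pcsk1n* and the factor *Isl1* were also called (2.13 and 1.82), whereas *Chga*, *Chgb*, *Pyy* and *Neurog3*, the progenitor factor, gave 1.04, 1.001, 1.37 and -1.14 and were not. The list held 3, 0 and 0 calls without control libraries 1, 2 and 4, and 0, 10 and 1 without IL-17A libraries 1, 2 and 3, while all 5 passed at an unadjusted p each time. Of 9 tuft cell markers 0 were called by limma (1 without IL-17A library 2), with a median of -0.59, and *Dclk1* stood at 54.0, 13.3 and 31.3 against 1.12, 65.9 and 17.6. *Sh2d6* gave 1.67 and *Cd24a* -0.59, and neither was called.

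*Plet1*, a membrane protein of epithelial progenitors and repairing epithelium, had the largest log2 fold change among called genes with a proper name. It stood at 47.8, 40.7 and 42.3 in the controls and at 2438, 2039 and 6051 with IL-17A (6.13 ± 0.40 SE, limma adjusted p = 0.00393, with 3.51e-40 to 0.447 over the alternatives). Its antisense neighbour *Plet1os* gave 5.48, and reads of the pair cannot be told apart without strand. *Sprr1a*, a cornified envelope protein, stood at 993, 1204 and 1429 against 7985, 5104 and 11069 (2.68). *Areg*, a ligand of the EGF receptor, stood at 933, 999 and 1096 against 7885, 4583 and 4065 (2.39). Both rose in each treated library with no overlap. *Cldn4*, a claudin, gave 1.98, and *Ly6a*, *Krt23* and *Plaur* gave 1.35, 1.62 and 1.26. Of 30 squamous-like, repair and cell shape genes tested these 7 were called higher, 0 lower and 23 not called, with a median of 0.65. The list held 4, 1 and 1 calls without control libraries 1, 2 and 4, and 0, 11 and 3 without IL-17A libraries 1, 2 and 3, while all 7 passed at an unadjusted p each time. *Clu*, of the same list, gave -1.51 and was not called, and the lowest member of the list gave -2.59. *Lor*, loricrin, which was not in this list, was called lower (-4.12).

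Of 20 tight junction and adhesion genes, 4 were called higher, 0 lower and 16 not called, with a median of 0.54. *Cldn4* stood at 4849, 4388 and 4490 against 19118, 11202 and 27275, and *Cldn23* gave 1.66, *Cldn3* 1.21 and *Dsg2*, a desmosomal cadherin, 1.04. *Cdh1*, E-cadherin, stood at 20411, 17592 and 17995 against 27749, 19864 and 31819 (0.48, not called). The junction list held 9 calls without IL-17A library 2 and 0 without any other single library, and 2 of the 4 passed at an unadjusted p each time.

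**Figure D3:**
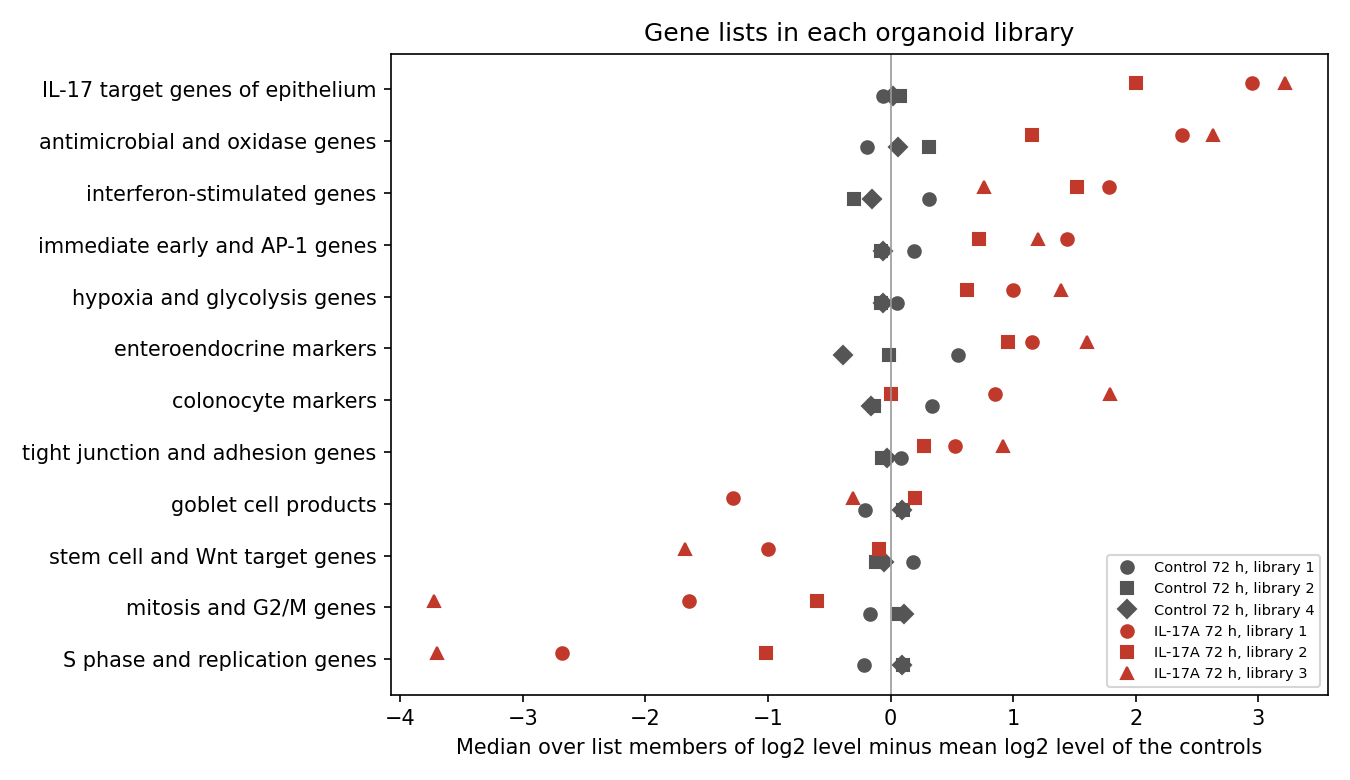
Median over the members of 12 gene lists of the log2 level minus the mean log2 level of the controls (horizontal axis, log2 units), 1 point for each library at 72 h, controls grey and IL-17A red. IL-17 targets lie at 2.003 to 3.22 in treated libraries and S phase genes at -3.70 to -1.02. IL-17A library 2 is the treated point nearest 0 in every list shown except interferon-stimulated genes.

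Of 18 hypoxia and glycolysis genes 9 were called higher, of 18 immediate early and AP-1 genes 7, and of 22 interferon-stimulated genes 7. Over all genes 5.02% were called higher. *Egln3*, a prolyl hydroxylase induced by low oxygen, stood at 5936, 3747 and 3885 in the controls and at 25223, 12705 and 26771 with IL-17A (2.21). *Vegfa*, the vascular growth factor, stood at 3173, 2435 and 2598 against 8548, 7092 and 8733 (1.57). *Car9*, a carbonic anhydrase, stood at 3345, 3049 and 3293 against 10761, 6639 and 9777 (1.46). The groups were far apart in all 3, and *Adm*, adrenomedullin, gave 2.80. *Ero1l*, an oxidase of the endoplasmic reticulum that low oxygen also induces, stood at 4393, 3635 and 3657 against 47532, 28511 and 35800 (3.23). *Ero1l* was in none of the lists and is given because of its calls with libraries left out. Of the hypoxia and glycolysis genes 0 were called lower and 9 were not called, with a median of 1.04. Calls numbered 4, 0 and 0 without control libraries 1, 2 and 4, and 0, 11 and 3 without IL-17A libraries 1, 2 and 3, and 7 of the 9 passed at an unadjusted p each time.

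Of the immediate early and AP-1 genes 0 were called lower and 11 were not called, with a median of 1.11. *Ier3*, an early response gene of NF-κB, stood at 643, 706 and 753 against 4858, 3981 and 1808 (2.22), and *Atf3*, a stress factor, at 165, 232 and 286 against 1258, 475 and 1353 (2.06). *Dusp1*, a MAP kinase phosphatase, and *Junb*, an AP-1 subunit, gave 1.99 and 1.92, and each overlaps another gene (*Ergic1* and *Prdx2*). *Zfp36*, *Nr4a1* and *Fos* gave 1.60, 1.51 and 1.09. The list held 1 call without control library 1, 11 without IL-17A library 2, 1 without IL-17A library 3 and 0 without any of the other 3, and 6 of the 7 passed at an unadjusted p each time. Of the interferon-stimulated genes 0 were called lower and 15 were not called, with a median of 1.34. *Ifit1*, which binds viral RNA, stood at 54.9, 39.8 and 33.9 against 327, 298 and 262 (2.78), and *Ifit3* gave 2.86. *Irf7*, the factor that amplifies the response, stood at 472, 120 and 138 against 1233, 872 and 777 (2.24), with control library 1 the highest control. Calls numbered 3, 0 and 0 without control libraries 1, 2 and 4, and 0, 8 and 3 without IL-17A libraries 1, 2 and 3, while all 7 passed at an unadjusted p each time.

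Apoptosis and p53 targets gave 3 genes called higher, 0 lower and 13 not called of 16, with a median of 0.38. *Gdf15*, a stress cytokine, stood at 472, 620 and 669 against 11444, 2845 and 6562 (3.36). *Pmaip1*, a death-promoting Bcl-2 family member, gave 2.49, and *Cdkn1a*, the inhibitor of cyclin-dependent kinases, stood at 2913, 2454 and 2354 against 6972, 5177 and 16011 (1.70). All 3 lost their calls without any single library other than IL-17A library 2, where the list held 4, while all 3 passed at an unadjusted p each time. Of 14 BMP pathway genes, *Bmp2*, a ligand, was called higher at 532, 620 and 704 against 3672, 1325 and 4853 (2.22), 0 lower and 13 not called, with a median of 0.57. Of 17 interleukins and their receptors, *Il4ra* and *Il22ra1*, receptor chains, were called higher (1.18 and 1.04), 0 lower and 15 not called, with a median of 0.077. Both of these lists held 0 calls in every fit that left out 1 library, except 4 and 3 without IL-17A library 2. At an unadjusted p *Bmp2* passed each time and neither interleukin receptor did.

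The remaining lists held few calls. Of 26 cilium assembly genes 0 were called higher, 3 lower (*Ift27*, *Rpgrip1l* and *Tctn2*, at -1.81, -1.57 and -1.34) and 23 not called, with a median of -0.64. Of 25 folding and stress genes of the endoplasmic reticulum, 1 was called higher (*Trib3*, 1.06), 0 lower and 24 not called, with a median of 0.14. Of 27 genes of amino acid synthesis and tRNA charging, 1 was called higher (*Aldh1l2*, 1.82), 0 lower and 26 not called, with a median of 0.14. Of 19 cholesterol genes, 1 was called higher (*Insig1*, a brake on sterol synthesis, 1.60), 0 lower and 18 not called, with a median of 0.10. Of 2 MHC class II genes 0 were called by limma, with a median of 0.14, and *H2-DMa* gave 0.58. Without IL-17A library 2 the cilium, folding, amino acid and cholesterol lists held 12, 3, 2 and 2 calls. Without any other single library they held 0, except for 1 in the amino acid list without control library 1 and without IL-17A library 3. Their called genes passed at an unadjusted p each time, except *Trib3*.

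Other genes with the largest increases were metabolic enzymes, a cytokine and low genes. *Cbr2*, a carbonyl reductase, stood at 799, 369 and 382 in the controls and at 24774, 10001 and 17577 with IL-17A (5.08). *Il1f9*, which encodes IL-36γ, had 2 control values above 0 (0.947 and 0.846) and stood at 29.1, 28.2 and 135 with IL-17A (5.01). *Alpl*, the tissue-nonspecific alkaline phosphatase, stood at 0.885, 0.947 and 0 against 42.6, 24.5 and 81.9 (4.87). The control levels of the last pair were those of single reads, so that their fitted changes depend on the pseudocount. *Pla2g12b*, of the phospholipase family, stood at 12.4, 0.947 and 0 against 95.2, 82.8 and 76.8 (4.85). *Gml2* stood at 3.54, 0.947 and 0.846 against 79.5, 15.1 and 161 (4.55) and overlaps *Cyp11b1*. *Tfr2*, a transferrin receptor, stood at 0 in every control and at 47.0, 6.59 and 40.3 with IL-17A, at least 11-fold higher in its mean when 3 reads are taken as the floor of each library. *Cd177*, a surface glycoprotein called also with sex as a block, stood at 2767, 6798 and 6726 against 41223, 42531 and 33119 (2.95).

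Gasdermin C genes were among the largest decreases. *Gsdmc4* stood at 517, 1324 and 1243 in the controls and at 47.0, 82.8 and 86.9 with IL-17A (-3.75). *Gsdmc3* stood at 59.3, 128 and 124 against 1.12, 0.941 and 5.04 (-5.08), and *Gsdmc2* at 256, 228 and 206 against 28.0, 31.1 and 18.9 (-3.12). All treated libraries were low, IL-17A library 2 included. These pore-forming proteins are encoded by near-identical neighbouring genes, so the division of reads among them is uncertain. *Lor*, loricrin, stood at 59.3, 227 and 192 against 3.36, 7.53 and 12.6 (-4.12), and *Il18rap*, a subunit of the IL-18 receptor, at 31.9, 64.4 and 81.2 against 5.60, 7.53 and 3.78 (-3.12). *Cttnbp2*, *Apip*, *Ube2cbp*, *Mex3b* and *Dmwd* gave -3.36, -3.18, -3.01, -2.97 and -2.96, and in each of them IL-17A library 2 was the highest of the treated libraries. *Ccr4*, a chemokine receptor that the study names, stood at 3.54, 3.79 and 0 against 14.6, 160 and 5.04 (3.15, not called), with IL-17A library 2 alone high.

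IL-17A was then set directly against IL-1 at 72 h, which asks whether the cytokines left different profiles. Both sets had been compared with the same control columns, so only the treated libraries were used. *Car12*, a carbonic anhydrase, stood at 700, 1557 and 1080 with IL-17A and at 558, 453 and 449 with IL-1 (1.12, not called). *C3* stood at 1276, 1023 and 2119 with IL-17A and at 2786, 4254 and 3676 with IL-1 (-1.33, not called). The groups did not overlap in either gene. Of 12875 genes 0 were called by limma (0%), and edgeR and DESeq2 also called 0. At an unadjusted p and the same fold 18 genes passed in limma (8 higher with IL-17A), 37 in edgeR and 71 in DESeq2, and the median SE was 0.30. The limma number was 302 without IL-17A library 3, 180 without IL-1 library 1 and 12 without IL-1 library 2, with 0 calls each time. Among the largest differences at an unadjusted p without overlap, *Igf2bp1*, *Rimbp3* and *Matn2* gave 2.64, 1.83 and 1.51, and *Evx2*, *Azgp1*, *Dnah7b*, *Tmem237* and *Cacna1e* gave -3.36, -1.78, -1.74, -1.50 and -1.38 (limma adjusted p = 1 for each). The median of the IL-17 targets was -0.09, that of the S phase genes 0.45 and that of the mitotic genes 0.61. A test that misses its threshold does not show that the profiles were alike. IL-1 library 2 was of female origin (*Xist* reads) and the other 5 libraries were of male origin. Deviations from the group mean went together for libraries of the same number, though libraries 2 differed far more (chi-square per gene 102) than libraries 1 (8.02) and 3 (16.9). With that number as a replicate block limma still called 0 genes, with 95 past the unadjusted p.

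IL-17A for 72 h was also set against IL-17A for 12 h, on reads scaled together. *Nfkbia* stood at 7310, 5596 and 5117 at 72 h and at 1577, 1555 and 1503 in the 12 h libraries 1, 3 and 4 (1.94 ± 0.18 SE, limma adjusted p = 0.035). *Clec2e*, a lectin-like gene, stood at 777, 734 and 665 against 155, 167 and 152 (2.19). *Slc17a4*, an anion transporter, and *Inf2*, a formin that remodels actin, gave 1.84 and 1.51. *Robo2*, a guidance receptor, stood at 11.1, 14.0 and 16.3 against 216, 268 and 304 (-4.16), and *Gsdmc4* at 46.8, 82.3 and 86.6 against 529, 788 and 792 (-3.30). In these genes libraries of 1 time were alike and the times far apart. They were the 6 genes called of 12942 (0.0464%), 4 higher and 2 lower at 72 h. At an unadjusted p and the same fold 2133 passed, 1073 of them higher. *Chodl*, *Tmem182* and *Gsdmc3* gave -6.59, -3.95 and -3.82 and were not called. *Eif2s3y*, on the Y chromosome, gave 7.63 and was not called. For this gene the 12 h group was mixed, with libraries 3 and 4 of female and library 1 of male origin. The median of the S phase genes was -2.01 and that of the interferon-stimulated genes 1.32, each with 0 calls in limma. Controls of the 2 times shared reads, so time in culture and treatment cannot be told apart here. The count was 0 without IL-17A 72 h library 1 or 12 h libraries 3 or 4, 2971 without 72 h library 2, 9 without 72 h library 3 and 48 without 12 h library 1, and edgeR and DESeq2 called 6 and 1552.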

How the data were processed

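RNA was sequenced from organoids with a SMARTER mRNA library kit. The authors aligned reads with STAR 2.5.3 to mm10 and deposited tables of signal values, read counts per gene divided by DESeq2 1.28.1 size factors; the counting program, gene annotation and strand setting were not given in the sources used here. Libraries were grouped by labels. All columns of the tables used were matched, and in every library 100% of values were whole reads (tolerance 0.1) after division by the value of 1 read. Of the 14858 gene entries, 19 carried date names in place of symbols.

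Values of the 72 h IL-17A table were tested in R 4.3.3 with limma 3.58.1 (empirical Bayes with a trend) on log2(value + 1), for genes with a mean of at least 10, with Benjamini-Hochberg adjustment over all genes. The direct comparisons used recovered reads with median-of-ratios factors computed together. On recovered reads of the comparison with controls, edgeR 4.0.16 called 869 genes and DESeq2 1.42.0 called 2311. The fits were also run on simulated data with 200 changed genes, and no statement here rests on the outcome.

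Named genes were the 12 largest called increases and decreases without overlap between groups and with a proper symbol, up to 4 called members of each of 39 gene lists (if none was called, the member with the lowest p and the most abundant one), genes the study names for organoids, and, in each direction of each direct comparison, up to 5 genes without overlap between groups and with a proper symbol: called genes first, then the largest among those past the fold at an unadjusted p. Further list members, *Ero1l*, *Cd177* and *C3* against IL-1 were named after their values were seen. Members and lists were chosen with earlier results of these data known.

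The alternatives were pseudocounts of 0.1 and 10, no filter or a mean of at least 50, upper-quartile scaling, an unadjusted p, each library left out, edgeR, DESeq2, library weights (gene-by-gene method, taken after another method had not converged), the replicate number as a block, the distinct control alone and all distinct untreated libraries as controls. Sex as a block, control library 1 alone, control libraries 2 and 4 averaged and a robust prior were added after seeing the data. IL-17A and IL-1 libraries of the same number deviated together from their group means (r = 0.583, 0.442 and 0.749 over genes, for numbers 1, 2 and 3, which are not independent replicates). Gene positions came from GENCODE M21. The floor of 3 reads covers counting error only.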

Additional observations from a re-analysis of the deposited data

How the results depend on the processing

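For IL-17A against control at 72 h, the counts ran from 3 to 3577 called and 3 to 1659 higher when 1 library was left out. An unadjusted p gave 2688 called and 1342 higher, DESeq2 2311 and 1361, library weights 3874 and 1857, and all distinct untreated libraries as controls 1995 and 1025. Every call was an increase with control library 2 alone (4), control library 1 alone (1), sex as a block (5) and control libraries 2 and 4 averaged (2). Pseudocounts of 0.1 and 10, no filter, a mean of at least 50, upper-quartile scaling (832 called; median over all genes -0.07), edgeR and a robust prior kept the count within 1.5 times. With the replicate number as a replicate block 4 genes were called, 4 of them higher; the numbers did not pair these libraries (r = -0.099 and -0.186). *Muc2* ran from -1.34 to 0.22 with 1 library left out, above 0 without IL-17A library 1. Its lowest value over all alternatives was -1.89, and in 1 alternative it was called lower. *Alpi* ran from -0.45 to 1.56, below 0 without IL-17A library 3, and stood at -0.50 with the replicate block, -0.087 with library weights and -0.24 both with sex as a block and with control library 1 alone. The cause was not tested.

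Against IL-1, an unadjusted p gave 18 genes, 8 higher, and every other alternative run called 0. Against 12 h, leaving out 1 library gave 0 to 2971 called and 0 to 1378 higher, an unadjusted p 2133 and 1073, DESeq2 1552 and 996, and upper-quartile scaling 10 called. There 118 and 88 came with a pseudocount of 10 and 1962 and 978 with the replicate block, although the numbers did not pair these libraries (r = 0.179 and -0.028). Named genes of the comparison with controls stayed on their side of the threshold and in direction in 1615 values under the alternatives, lost the call in 922, gained it in 48 and reversed in the 6 given for *Muc2* and *Alpi*. Averaging columns alike within sampling noise was not run, since no pair of one group was that alike. Control values of *Lcn2*, *Il1f9*, *Alpl* and *Tfr2* rest on single reads or none and are limited by depth. With 3 libraries a group and 1 treated library apart, a gene without a call is not shown to be equal in both groups.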
